A study of Homo sapiens with 6 samples.

Results

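The AP-1 transcription factor genes were examined in ATAC-seq peak summits of MDA-MB-231, a long-used line of human breast cancer cells of the triple-negative type. ATAC-seq uses a transposase that inserts sequencing adapters into accessible DNA. The 10 genes FOS, FOSB, FOSL1, FOSL2, JUN, JUNB, JUND, ATF3, BATF3 and MAFF were taken by name from 20163 protein-coding genes of the annotation. The groups compared were Parental cells, with SAP30 intact, and the line SAP30-KO1, made by CRISPR/Cas9 knockout of SAP30, which belongs to the SIN3 histone deacetylase complex. The labels name no further treatment for either group, and there were 3 libraries in each. Per the study's methods, cells that had received the guide vector were treated with puromycin, and a knockout line was made by mixing several selected knockout cells. SAP30-KO1 is thus a single mixed line compared with unedited cells, and the labels do not say whether the replicates came from separate cultures, so the spread between libraries may be technical.

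AP-1 is a family of dimeric basic leucine zipper factors. Jun proteins pair with one another or with Fos, ATF, BATF and Maf proteins, and Fos proteins need a partner to bind DNA. The dimers recognise a short palindrome, TGANTCA, or with ATF partners the longer TGACGTCA. FOS, FOSB, JUN, JUNB, ATF3 and MAFF are known as genes that growth factors or stress induce within minutes to hours, whereas JUND is widely and steadily expressed. In triple-negative breast cancer cells FOSL1, which encodes FRA1, is known for its link to invasion and mesenchymal features.

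Each summit list held 29762 to 40650 summits, and the number of reads behind them is unknown. A summit was assigned to a promoter when it lay within 1 kb of any annotated start site of the gene, and to a gene window when it lay between 50 kb upstream of the gene and 50 kb past its end. The score of a summit was taken to be its q value on the −log10 scale, because the lowest score of each library, 1.31 to 1.33, lay just above the calling threshold on that scale, 1.3. No file header states this unit. The score was converted to a percentile rank within its own library, from 0 to 100, and the highest promoter summit stood for the promoter. A rank of 0 means that the library listed no summit there. Lists taken pairwise shared few exact positions, 0.417% to 0.598% of the shorter one, so none was a copy of another. In this bulk assay, a site open in fewer cells and a site less open in every cell cannot be told apart. The promoter of SAP30 itself ranked 84.7, 64.8 and 81.3 in the Parental and 71.8, 49.5 and 89.5 in the SAP30-KO1 libraries, which does not check the knockout, since CRISPR editing need not close a promoter. Of the lists of markers, 5 of 5 genes typical of a mesenchymal-like basal line (VIM, ZEB1, AXL, CD44 and SNAI2) had a promoter summit in some library, 2 of them in all 6. So had 5 of 6 luminal and epithelial genes, none in all 6 and CDH1 in none, and 0 of 2 blood cell genes (PTPRC and CD3E).

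The promoters on which the results turn are shown first, as the 200 bases before the start site on the strand of the gene (GRCh37). JUN and JUND had a promoter summit in all 6 libraries, whereas FOS had one in 1 library and FOSB and JUNB in none. JUN lies at chr1:59249721-59249920, JUND at chr19:18392433-18392632, FOS at chr14:75745329-75745528, FOSB at chr19:45971053-45971252 and JUNB at chr19:12902100-12902299, all outside annotated exons. Capitals mark the exact matches to TGANNTCA, TGACGTCA, CCAAT and TATAAA on either strand.
JUN: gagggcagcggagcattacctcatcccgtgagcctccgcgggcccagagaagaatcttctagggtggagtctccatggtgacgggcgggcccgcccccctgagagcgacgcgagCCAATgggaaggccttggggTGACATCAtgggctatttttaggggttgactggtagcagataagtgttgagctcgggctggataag
JUND: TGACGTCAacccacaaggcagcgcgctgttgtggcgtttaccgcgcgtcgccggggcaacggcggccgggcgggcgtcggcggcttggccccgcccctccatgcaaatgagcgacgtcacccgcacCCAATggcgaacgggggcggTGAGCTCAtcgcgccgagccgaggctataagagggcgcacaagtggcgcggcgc
FOS: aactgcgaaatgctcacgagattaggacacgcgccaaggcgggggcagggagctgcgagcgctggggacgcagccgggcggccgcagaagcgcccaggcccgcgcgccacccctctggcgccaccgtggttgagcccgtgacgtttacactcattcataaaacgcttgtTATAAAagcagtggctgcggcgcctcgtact
FOSB: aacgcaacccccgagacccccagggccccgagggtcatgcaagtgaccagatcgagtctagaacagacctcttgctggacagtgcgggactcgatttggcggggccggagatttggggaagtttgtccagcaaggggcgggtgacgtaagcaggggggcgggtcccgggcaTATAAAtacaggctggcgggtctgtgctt
JUNB: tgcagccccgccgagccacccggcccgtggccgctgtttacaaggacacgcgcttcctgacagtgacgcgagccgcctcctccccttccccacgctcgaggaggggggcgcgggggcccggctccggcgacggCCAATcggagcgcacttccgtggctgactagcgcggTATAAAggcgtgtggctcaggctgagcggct
The AP-1 palindrome TGANTCA was found in none of these windows for any of the 10 genes, against 4.72% of the same windows of all 20163 protein-coding genes. The looser TGANNTCA, which also covers TGACGTCA, was found in JUN, with its first base at -66 from the start site, and in JUND at -200 and -54, against 7.68% of all genes. The copy of JUND at -200 was the full TGACGTCA, present in 1.81% of all genes. CCAAT stood in JUN at -86, in JUND at -74 and in JUNB at -67 (29.5% of all genes). TATAAA stood in FOS at -31, in FOSB at -29 and in JUNB at -31 (7.87% of all genes). The serum response element was found in none of the 10 windows and in 0.967% of all genes. These are matches of letters in a short window, and their absence says nothing about sites elsewhere. The start site used was the most upstream one within 1 kb of the highest promoter summit. Where no library had a promoter summit, it was the outermost annotated one. MAFF has 7 annotated start sites and no promoter summit, so its window may not be the promoter in use.

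Promoter accessibility was then compared across the family. ATF3, JUN and JUND had a promoter summit in all 6 libraries, which is 3 of 10 genes beside 34.5% of all protein-coding genes. FOSB, JUNB and MAFF had none in any library, which is 3 of 10 beside 37.7%. The other 4 genes, FOSL2, BATF3, FOSL1 and FOS, had a summit in some libraries. Of the 7 genes with a promoter summit, the mean rank was lower in SAP30-KO1 cells for 6 and higher for 1. Over all 12564 genes with a promoter summit, 5893 were lower and 6671 higher. The median difference was -4.49 percentile points for the 7, beside 0.679 over all. Among the 6, FOS had a summit in only 1 library and FOSL1 in 1 library of each group. The ranks of the groups did not overlap for 2 genes, JUND (lower) and BATF3 (higher). With all 6 libraries, the groups did not overlap in 4.58% (lower) and 6.01% (higher) of the 12564 genes. Without Parental replicate 1, or without SAP30-KO1 replicate 1, 3 of the AP-1 genes were lower without overlap. Leaving out a library makes non-overlap easier, and the share over all genes is not given for these settings. With 3 libraries against 3 the smallest p of the two-sided exact permutation test, is 0.1, so no gene could fall below 0.05, and the lowest adjusted p over all genes was 0.945 (exact permutation test with Benjamini-Hochberg adjustment).

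**Figure D1:**
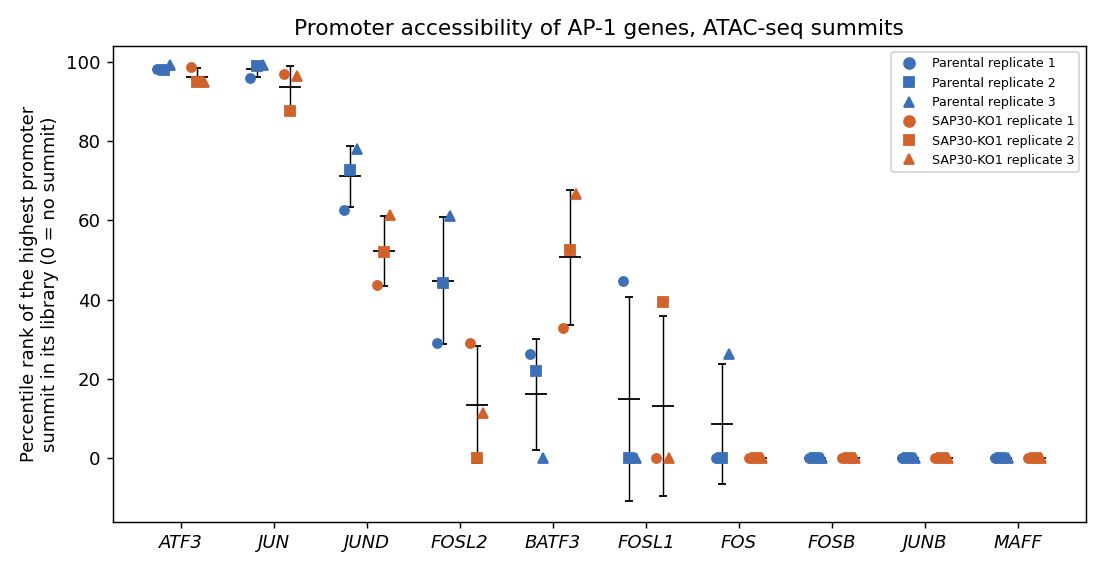
Percentile rank of the highest promoter summit (vertical axis) of each AP-1 gene (horizontal axis, ordered by the Parental mean), 1 point per library, with the mean as a horizontal tick and the SD as a bar (n = 3). ATF3 ranks 94.9 or higher and JUN 87.5 or higher in every library, JUND lies between 43.7 and 78, and FOSB, JUNB and MAFF have no promoter summit.

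Of the Fos genes, FOS had a promoter summit in 1 library, FOSL1 in 2, FOSL2 in 5 and FOSB in none. FOS (14q, at chr14:75745529-75748933) encodes the founding partner of Jun in AP-1. Its promoter had a summit in Parental replicate 3 alone, at rank 26.2 and -103 bp from the start site, and none in the other 5 libraries. A separate intergenic summit at -1593 bp was present in all 6 libraries, with ranks of 34.7, 64.8 and 37.2 in Parental and 25.4, 79.3 and 52.1 in SAP30-KO1 cells. Those groups overlapped, and with a promoter window of 2.5 kb, which takes in this site, the difference for FOS was 6.71 (two-sided exact permutation test, p = 0.7), opposite to the value of -8.75 at 1 kb. The FOS window also held accessible promoters of non-coding genes on either side. The locus at -19821 bp ranked 93.6, 77.8 and 79.4 in Parental and 83, 83.2 and 87.9 in SAP30-KO1 cells. The start of LINC01220, at 13860 bp, ranked 75.3, 84.7 and 78.4 against 84.9, 84.8 and 80.1. The groups overlapped at each of these sites.

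FOSB (19q, at chr19:45971253-45978437), another early-induced Fos gene, had no promoter summit in any library. Of the 8 loci in its window, 1 was present in all 6 libraries, in an intron of ERCC1 at -12031 bp. That locus ranked 27, 13.1 and 11.7 in Parental and 34.3, 39.3 and 25.3 in SAP30-KO1 cells, and the ranks of the groups overlapped only between 25.3 and 27 (difference 15.7, two-sided exact permutation test, p = 0.2).

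FOSL2 (2p, at chr2:28615315-28640184), which encodes FRA2, had a promoter summit in 5 of 6 libraries. The ranks were 29, 44.2 and 61 in Parental cells and 29.1, 0 and 11.5 in SAP30-KO1 cells. SAP30-KO1 replicate 2, the longest list, had no promoter summit, and SAP30-KO1 replicate 1 lay just above the lowest Parental library, so the groups overlapped. The means were 44.7 ± 16 and 13.5 ± 14.6 (SD, n = 3), a difference of -31.2 (two-sided exact permutation test, p = 0.2). Ranks of the neighbouring locus at -1978 bp, in an intron of FOSL2-AS1, were 81, 38.8 and 0 against 14.9, 7.29 and 3.16. With a promoter window of 2.5 kb, which takes in this locus, the groups did not overlap. The difference was then -46.1 (two-sided exact permutation test, p = 0.1).

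JUN (1p, at chr1:59242517-59249720) encodes c-Jun, the partner shared by most AP-1 dimers. Its promoter ranked 96, 98.9 and 99.3 in Parental and 97, 87.5 and 96.3 in SAP30-KO1 cells. The summits lay between -130 and -16 bp from the start site, around the CCAAT and TGACATCA letters printed above. SAP30-KO1 replicate 2 was the lowest, the groups overlapped, and the difference of -4.49 was within the spread (98.1 ± 1.78 against 93.6 ± 5.28, SD, n = 3; two-sided exact permutation test, p = 0.3). Without SAP30-KO1 replicate 2 the difference was -1.45. Start sites of LINC01135 and of an unnamed non-coding gene lie within 1 kb of these summits, so the summit cannot be assigned to JUN alone.

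JUNB (19p, at chr19:12902300-12904129), a Jun gene that often limits c-Jun activity, had no summit within 1 kb of its single start site. The nearest locus, at -1413 bp in an intron of HOOK2, was present in all 6 libraries and ranked 9.88, 63.2 and 37.2 in Parental and 72.4, 45.1 and 28.2 in SAP30-KO1 cells. Its groups overlapped widely.

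JUND (19p, at chr19:18390504-18392432), the steadily expressed Jun gene, ranked 62.7, 72.6 and 78 in Parental and 43.7, 51.9 and 61.4 in SAP30-KO1 cells. Every SAP30-KO1 library lay below every Parental library, with the highest of the former just under the lowest of the latter. The means were 71.1 ± 7.74 and 52.4 ± 8.87 (SD, n = 3), a difference of -18.7 (two-sided exact permutation test, p = 0.1, adjusted p = 0.945). The scores themselves overlapped, at 6.97, 8.72 and 9 against 5.5, 6.73 and 7.3 on the −log10 scale, and so did the ranks among summits with q of 0.0001 or less, in lists of equal length and within the chromosome arm. The summits lay between -270 and -54 bp, and the start of MIR3188 lies within 1 kb of them.

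ATF3 (1q, at chr1:212738676-212794119), a stress-induced ATF gene with several start sites, had the highest mean promoter rank of the 10. It ranked 98.3, 97.9 and 99.1 in Parental and 98.8, 94.9 and 94.9 in SAP30-KO1 cells, with summits between -136 and -47 bp from an internal start site. SAP30-KO1 replicate 1 lay among the Parental libraries, so the groups overlapped (98.4 ± 0.638 against 96.2 ± 2.29, SD, n = 3; difference -2.22, two-sided exact permutation test, p = 0.3). Without SAP30-KO1 replicate 1 the difference was -3.54.

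BATF3 (1q, at chr1:212859759-212873182), known for its role in dendritic cells, pairs with Jun proteins and lacks a transactivation domain. Its promoter ranked 26.2, 22.1 and 0 in Parental and 32.9, 52.4 and 66.7 in SAP30-KO1 cells. All 3 SAP30-KO1 libraries lay above all 3 Parental libraries, with means of 50.7 ± 17 and 16.1 ± 14.1 (SD, n = 3), a difference of 34.6 (two-sided exact permutation test, p = 0.1, adjusted p = 0.945). The summits did not lie at the same place. In Parental cells they lay 382 and 294 bp past the most upstream start site, and in SAP30-KO1 cells 512, 565 and 576 bp past it. Within 500 bp of a start site only the Parental summits remained, and the difference turned to -16.1 (two-sided exact permutation test, p = 0.4). MAFF (22q, at chr22:38596774-38612514), a small Maf gene whose product also lacks a transactivation domain, had no promoter summit in any library.

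In order of Parental mean, ATF3 and JUN overlapped, JUND lay below both, FOSL2 lay below JUND, and BATF3 lay below FOSL2, with no overlap at these last 3 steps. BATF3, FOSL1 and FOS overlapped each other. In SAP30-KO1 cells the steps from JUN to JUND and from JUND to FOSL2 also showed no overlap, but the order of FOSL2 and BATF3 was reversed, with every BATF3 rank above every FOSL2 rank. That reversal did not hold within 500 bp of a start site, where BATF3 had no SAP30-KO1 summit. The values compared are ranks of peak scores and not levels of expression.

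Next, the number of summits in the window of each gene was compared. The windows of all 10 genes together held 50, 45 and 43 summits in Parental and 35, 56 and 47 in SAP30-KO1 cells. SAP30-KO1 replicates 1 and 2, the shortest and the longest list, had the fewest and the most, and the group means were equal, a difference of 0 (two-sided exact permutation test, p = 1). Per 100000 summits of the list the windows held 136, 148 and 128 against 118, 138 and 137. ATF3 had the most, with 10, 7 and 10 in Parental and 8, 11 and 9 in SAP30-KO1 cells, and its Parental mean exceeded that of 97.5% of all genes. MAFF and JUNB had the fewest, with Parental means of 2 each. By number of summits, none of the 10 windows had groups that did not overlap. Per 100000 summits of the list, the FOS window did, with 10.9, 13.1 and 14.9 in Parental and 10.1, 9.84 and 8.76 in SAP30-KO1 cells (difference -3.42, two-sided exact permutation test, p = 0.1). The FOS counts themselves, 4, 4 and 5 against 3, 4 and 3, met only at the value 4. By number of summits, the share over 18717 genes with a summit in the window was 2% (lower) and 2.94% (higher). The share per 100000 summits is not given, so the FOS window has no background on that scale.

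**Figure D2:**
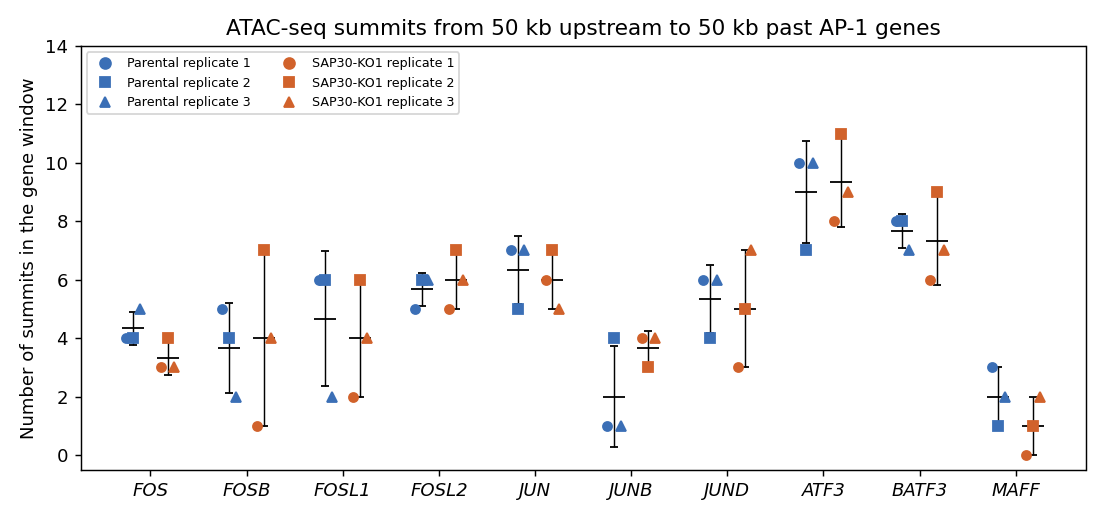
Number of summits (vertical axis) from 50 kb upstream to 50 kb past the end of each gene (horizontal axis), 1 point per library, with the mean as a tick and the SD as a bar (n = 3). The libraries of the groups overlap for all 10 genes, with ATF3 between 7 and 11 summits and MAFF between 0 and 3.

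To follow single sites, summits of the 6 libraries were extended by 250 bp on each side and merged into 56413 loci, of which 76 lay in the windows. Distances in the text are from the nearest start site of the gene. The windows of ATF3 and BATF3 overlap and share 4 of these. Of the 76 loci, 22 (28.9%) were present in all 6 libraries, beside 28.9% of all loci, and 19 (25%) in a single library, beside 28.5%. By position 33 were promoters of any annotated gene, 22 intergenic, 18 intronic and 3 exonic. The ranks of the groups did not overlap at 7 loci (9.21%) that were lower and 2 (2.63%) that were higher in SAP30-KO1 cells, beside 4.26% and 5.86% of all loci. Among summits with q of 0.0001 or less the balance was 4 lower and 5 higher. The number higher also rose to 9 without SAP30-KO1 replicate 1, to 5 without Parental replicate 1 or SAP30-KO1 replicate 3 and to 4 without Parental replicate 2. Leaving out a library makes non-overlap easier at any locus. The shares over all loci under these settings are not given, so these counts cannot be read as a result about the windows. The 9 loci first counted lay in the windows of FOSL2, JUND, ATF3, MAFF, BATF3 and JUNB. 1 of 76 loci had summits in every Parental but no SAP30-KO1 library, beside 0.876% of all loci, and none was present in SAP30-KO1 alone, beside 1.43%. The median difference over the 76 loci was -1.95, beside 0.28 over all. Over the 22 loci present in all 6 libraries the median was in the other direction, at 0.987, beside 0.173 over all loci so present.

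**Figure D3:**
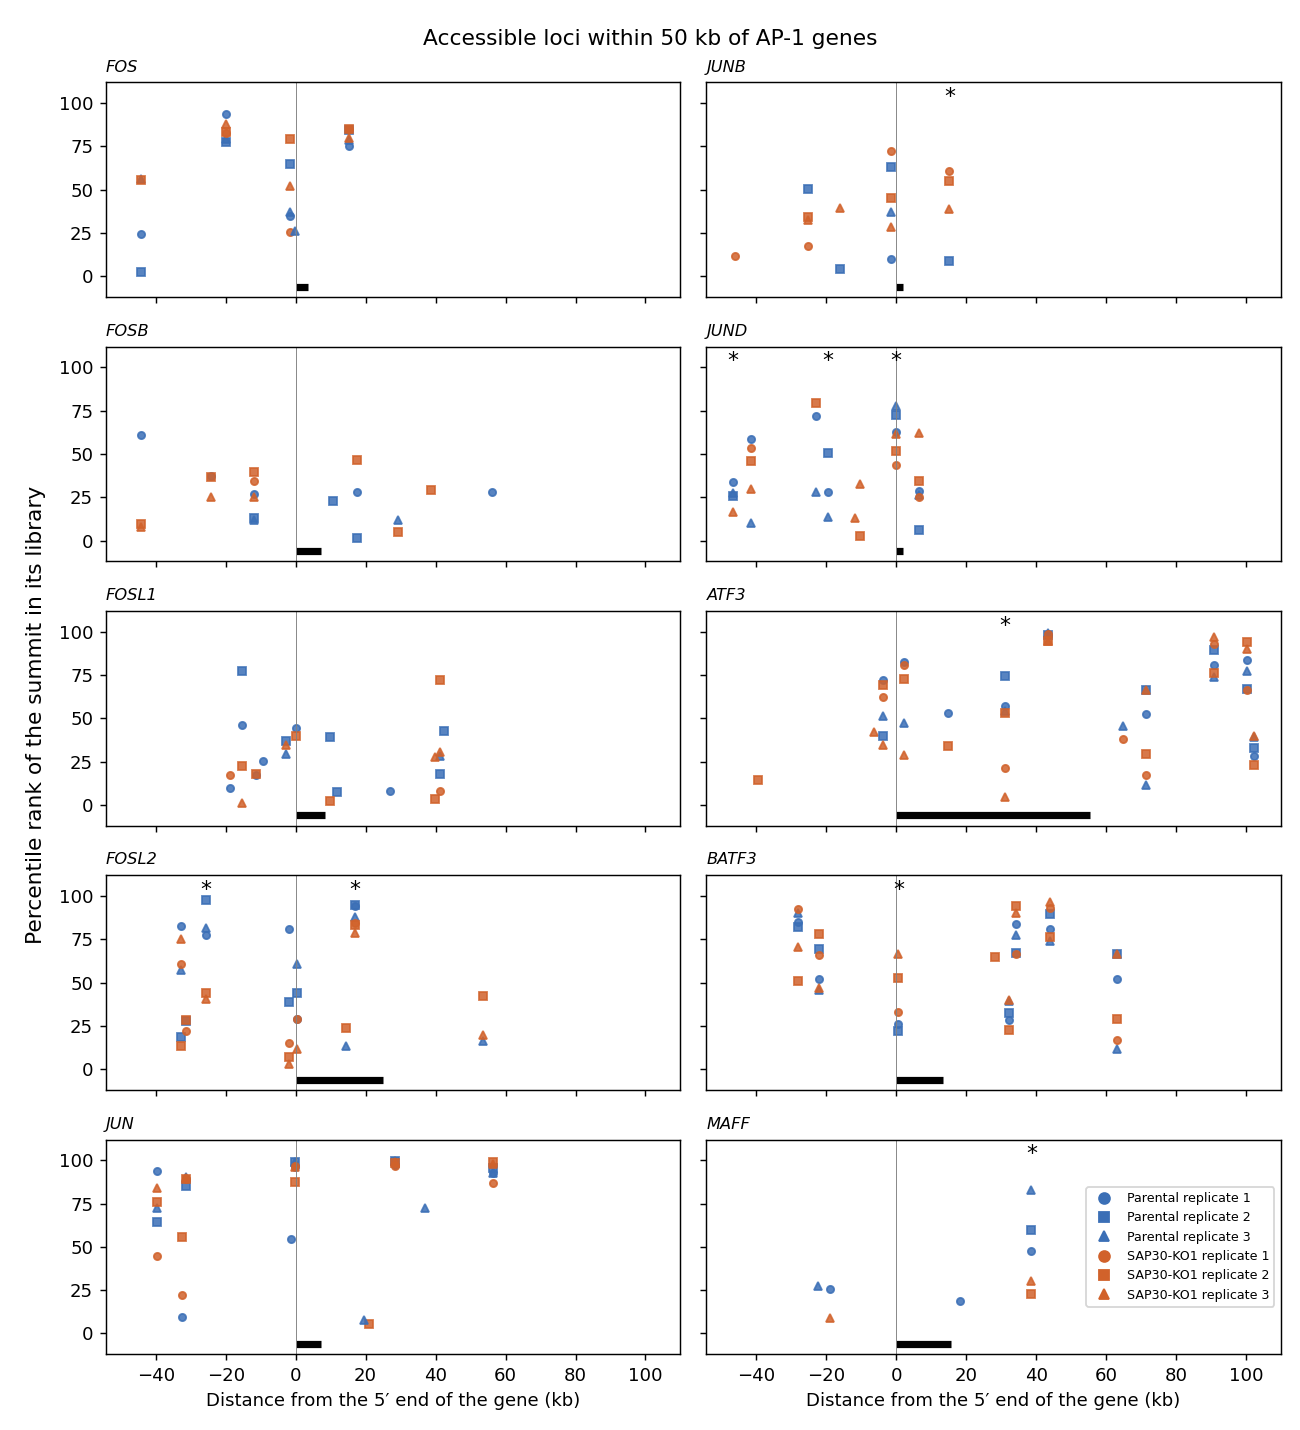
Loci within 50 kb of each AP-1 gene, by distance from the annotated 5′ end of the gene (horizontal axis, kb, positive in the direction of transcription) and percentile rank in each library (vertical axis, absent summits not drawn). The black bar is the gene and an asterisk marks the 9 loci at which the groups do not overlap, of which those in the FOSL2 window are both lower in SAP30-KO1 cells. The ATF3 promoter summit lies at an internal start site.

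Both loci of FOSL2 were lower in SAP30-KO1 cells. An intergenic locus at -25697 bp (chr2:28589366-28589927) ranked 77.7, 97.5 and 81.5 in Parental and 0, 44.1 and 40.3 in SAP30-KO1 cells. The gap between the groups was wide, with means of 85.6 ± 10.5 and 28.1 ± 24.5 (SD, n = 3) and a difference of -57.4, the largest of the 9 (two-sided exact permutation test, p = 0.1). An intronic locus at 13902 bp (chr2:28631958-28632538) ranked 94.2, 95 and 87.7 against 84.2, 83.4 and 78.6. It was strong in all 6 libraries and the shift was small, at -10.3 (two-sided exact permutation test, p = 0.1).

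Besides its promoter, JUND had a pair of intergenic loci that were lower, both nearer to LSM4 than to JUND. The locus at -19555 bp (chr19:18411683-18412237) ranked 27.8, 50.7 and 13.6 in Parental cells and was absent from all 3 SAP30-KO1 libraries, the only such locus of the 76. The difference was -30.7 (two-sided exact permutation test, p = 0.1). The locus at -46817 bp (chr19:18438995-18439906) ranked 33.8, 25.8 and 27.6 against 0, 0 and 16.7, a difference of -23.5. Both loci were weak to middling in Parental cells.

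In an intron of ATF3, the locus at -12314 bp from the nearest start site (chr1:212769260-212769948) ranked 57.1, 74.7 and 54.4 in Parental and 21.5, 53.3 and 4.62 in SAP30-KO1 cells. SAP30-KO1 replicate 2 lay close to the lowest Parental library, and the difference was -35.6 (two-sided exact permutation test, p = 0.1). The ATF3 promoter, in contrast, ranked 94.9 or higher in every library. The remaining pair, besides the BATF3 promoter, belonged to promoters of neighbours. The promoter of TMEM184B in the MAFF window ranked 47.9, 59.7 and 83 against 0, 22.6 and 30.1 (difference -46). The promoter of RNASEH2A, a subunit gene of ribonuclease H2, in the JUNB window ranked 0, 8.98 and 0 against 60.5, 54.9 and 38.6 (difference 48.4).

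JUN had the strongest distal site. A locus 28387 bp past its start site (chr1:59220841-59221582), in an intron of a non-coding gene, ranked 97.4, 99.6 and 99.6 in Parental and 96.8, 98.7 and 99.3 in SAP30-KO1 cells. It stood as high as the promoter, and the groups overlapped (difference -0.632, two-sided exact permutation test, p = 0.5). At 56406 bp another intronic locus ranked 92.9, 95.6 and 92.7 against 87.2, 99.2 and 97.7. The promoter of LINC01135 at -31260 bp ranked 85.3 to 90.1 in all 6 libraries. In total 5 of 10 loci of the JUN window were present in all 6 libraries, beside 28.9% of all loci. So were 6 of 12 of ATF3 and 5 of 8 of BATF3, some of them the same loci, and 3 of 5 of FOS. The share was 12.5% to 25% in the windows of FOSB, JUNB, FOSL2 and JUND, and 0 in those of FOSL1 and MAFF.

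The sequences under 4 of the lower distal loci are shown because they can be searched for the motif that AP-1 itself binds. Each is the 151 bases centred on the summit of the highest rank, on the forward strand (GRCh37), at chr1:212769623-212769773 for ATF3, chr2:28589543-28589693 and chr2:28632205-28632355 for FOSL2 and chr19:18411912-18412062 for JUND. Capitals mark the palindrome TGANTCA and the motifs named for the promoters, on either strand.
ATF3 intron: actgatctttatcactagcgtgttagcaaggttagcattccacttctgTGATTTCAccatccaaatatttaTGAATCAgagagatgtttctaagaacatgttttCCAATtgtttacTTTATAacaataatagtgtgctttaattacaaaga
FOSL2 upstream: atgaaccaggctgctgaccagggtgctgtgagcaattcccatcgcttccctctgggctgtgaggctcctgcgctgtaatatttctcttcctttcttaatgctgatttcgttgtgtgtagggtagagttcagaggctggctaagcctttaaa
FOSL2 intron: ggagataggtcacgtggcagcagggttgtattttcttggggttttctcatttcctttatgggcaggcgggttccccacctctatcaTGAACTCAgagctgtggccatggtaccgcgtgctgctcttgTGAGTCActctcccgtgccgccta
JUND upstream: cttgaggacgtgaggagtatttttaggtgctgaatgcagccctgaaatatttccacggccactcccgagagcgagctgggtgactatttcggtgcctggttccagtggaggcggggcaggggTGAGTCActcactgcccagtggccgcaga
Counted along the forward strand from the summit, TGANTCA lay at -4 bases in the ATF3 intron (TGAATCA), at 52 in the FOSL2 intron and at 47 upstream of JUND (TGAGTCA in each). The FOSL2 upstream locus held none within the 501 bases searched. Across the windows, TGANTCA stood in 21 of 43 distal loci (48.8%), beside 54.6% of 39782 distal loci of the whole genome. Among loci present in all 6 libraries it stood in 9 of 14 (64.3%), beside 64.4%. Of the 5 distal loci that were lower without overlap, 3 held it. Promoter loci held it less often, in 8 of 33 (24.2%) in the windows and 19.6% of all promoter loci. The FOSL1 promoter locus held 1 match, at -123 bases from its summit. The shares in AP-1 gene windows were thus near those over all loci.

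FOSL1 was set against the other loci of 11q, because accessibility ranks were lower in SAP30-KO1 cells along this arm. FOSL1 lies at chr11:65659520-65668044. Of each list, 3.37% to 3.65% of the summits lay on 11q in Parental cells and 2.39% to 2.61% in SAP30-KO1 cells. Over 486 genes of 11q with a promoter summit, the median difference was -10.1 percentile points, 80% were lower, and the groups did not overlap in 108 (22.2%, lower) and 3 (higher). The 1770 loci of 11q had a median difference of -9.87, beside 0.521 for the loci off this arm.

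The FOSL1 promoter had a summit in Parental replicate 1 (rank 44.6) and SAP30-KO1 replicate 2 (rank 39.5), 67 and 76 bp past the start site, and in none of the other 4 libraries. These 2 libraries had the longest lists of their groups. The difference was -1.69 (two-sided exact permutation test, p = 1), and 75.1% of the 11q genes had a larger shift downward. Ranked among the summits of 11q alone, the promoter was at 39.7, 0 and 0 in Parental and 0, 44.6 and 0 in SAP30-KO1 cells, a difference of 1.64 (two-sided exact permutation test, p = 1). With 1 library of each group carrying the summit, the direction for FOSL1 changed with the library left out and was not determined by these data.

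The FOSL1 window held 12 loci, none of them in all 6 libraries and at most 5 libraries at any, whereas 25.6% of the loci of 11q were present in all 6. Of the 12, 8 were lower and 4 higher in SAP30-KO1 cells, and the groups overlapped at all 12. None of the 12 had a summit in every Parental library. A locus with a Parental rank of 0 cannot be lower without overlap. The share of 11q loci that were lower without overlap, 18.6%, is therefore no measure for these 12. The median difference was -2.6, beside -9.91 over the other 1758 loci of the arm and -14.7 over the 454 present in all 6 libraries. The FOSL1 median lay 7.31 points above that of the rest of the arm, and 11.1 without Parental replicate 1. The largest downward shift stood at -15197 bp, an intergenic locus near C11orf68, with ranks of 46, 77.1 and 0 in Parental and 0, 22.5 and 1.34 in SAP30-KO1 cells. The largest upward shift stood at the CFL1 and MUS81 promoters, 40956 bp past the FOSL1 start site, with 0, 17.9 and 28.3 against 7.73, 72.4 and 30.7. Ranks at sites with few summits are bounded by 0, and loci of 11q with a summit in 2 libraries had a median difference of -8.7 while those with 5 had -23.

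In number of summits, the FOSL1 window held 6, 6 and 2 in Parental and 2, 6 and 4 in SAP30-KO1 cells. The sums of 14 and 12 give a log2 ratio of -0.22, beside a median of -0.26 over 489 genes of 11q with at least 6 summits in each group. FOSL1 thus had a ratio near the middle of its arm, with 53.4% of those genes lower. The 3 genes with promoter ranks most like FOSL1 over the 6 libraries were DENND5A (11p), COL4A2 (13q) and SOCS7 (17q), at distances of 4.12, 4.33 and 5.9 rank points. None of them lies on 11q.

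**Figure D4:**
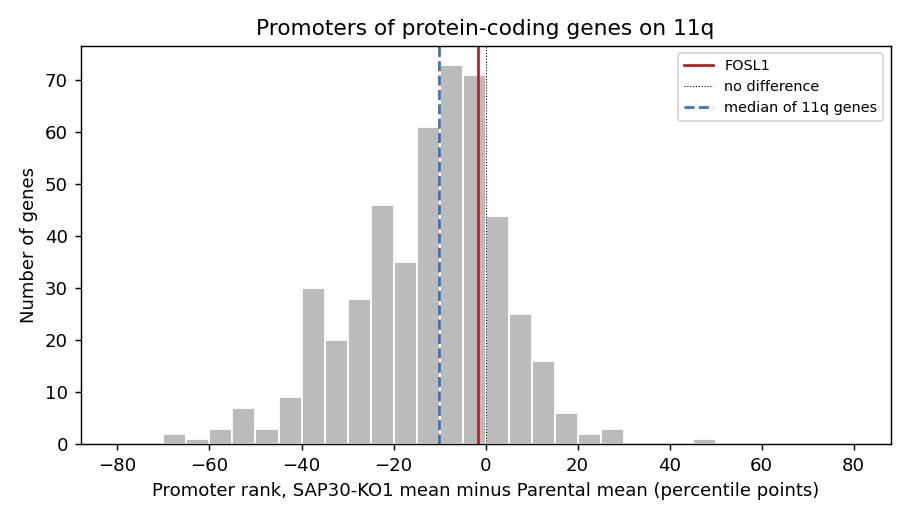
Number of protein-coding genes of 11q (vertical axis) by the difference of mean promoter rank, SAP30-KO1 minus Parental (horizontal axis, percentile points). The red line marks FOSL1 at -1.69, the dashed blue line the median of the 486 genes at -10.1 and the dotted line no difference.

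Finally, genes around the AP-1 family were compared by the same promoter ranks. The counts and medians of these lists stand beside 4.58% (lower) and 6.01% (higher) without overlap and a median difference of 0.679 over all 12564 genes. Of 10 other partner genes of the ATF, BATF, JDP and Maf kinds reported here, 8 had a promoter summit, 4 of them in all 6 libraries. The groups overlapped for each of these 8, of which 5 were lower and 3 higher in SAP30-KO1 cells, with a median difference of -1.91. ATF2, a constitutive partner of c-Jun, ranked 95.9 to 98.4 in all 6 libraries.

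Among 12 kinases and factors upstream of AP-1 genes, 11 had a promoter summit, none was lower and 1 was higher without overlap, with a median difference of 10. The 1 of 11 is near the share over all genes. The gene was SRF, the serum response factor that acts at the FOS promoter, at 43.9, 62 and 57.3 against 70, 77 and 73.6 (difference 19.1, two-sided exact permutation test, p = 0.1, adjusted p = 0.945). Of 14 genes known as AP-1 targets, 8 had a promoter summit and none had groups without overlap, with a median of -2.78. MMP1, MMP3, MMP13 and CCND1, which lie on 11q, had no promoter summit in any library, as did MMP9 and IL11. Of 11 other immediate early genes, 9 had a promoter summit, again none without overlap, with a median of 0.163. EGR1, EGR2 and IER5 had a summit in every library, at 68.7 to 95.4, 61.1 to 93.5 and 85.7 to 95.2. So had DUSP1 and CCN2, over the wider ranges of 0.692 to 79.7 and 24.8 to 87.2.

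**Figure D5:**
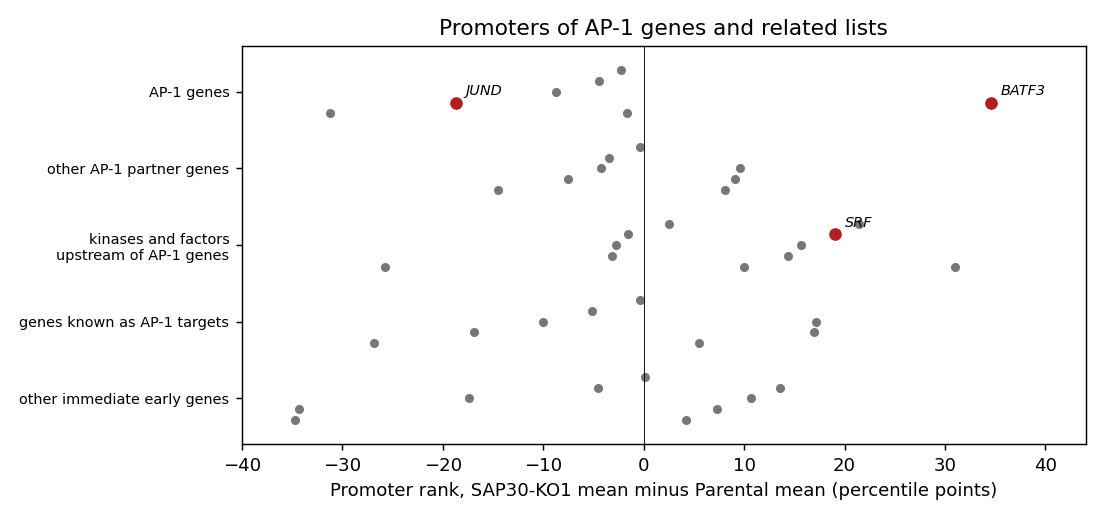
Difference of mean promoter rank, SAP30-KO1 minus Parental (horizontal axis, percentile points), for each gene with a promoter summit, by list (vertical axis, points spread for legibility). Red points mark the 3 genes whose groups do not overlap, JUND at -18.7, BATF3 at 34.6 and SRF at 19.1.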

How the data were processed

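Per the labels and the study's methods, the authors trimmed single-end reads with Trim Galore (0.4.5), aligned them to hg19 with Bowtie2 (2.3.3.1), dropped duplicates (Picard) and called peaks by MACS2 (2.1.0) at a q value threshold of 0.05, here taken to be done in each library separately, since each has its own list. Whether reads were shifted for the transposase offset is not given in the sources used here. The deposited lists give the summit and a score, read from its values as the −log10 of the q value. No counts were given, so depth is unknown.

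Ranks, windows and merged loci were computed in Python (3.11.15) with NumPy (2.4.6) and SciPy (1.17.1), and figures with Matplotlib (3.10.9), using GENCODE release 44 mapped to GRCh37. The largest run of unknown bases separated the arms of a chromosome. Means of 3 libraries were compared by an exact permutation test over 20 assignments, two-sided, with Benjamini-Hochberg adjustment over all genes tested. The functions were tested on simulated data. Named are all 10 members, the loci and listed genes whose groups did not overlap (at most 3 for each member or list, by size of difference), and the 3 genes most like FOSL1. Other loci and listed genes given with values were chosen after their values were seen. From the lists, 2 genes are not reported here, and list counts and medians leave them out. Members, lists and alternatives were chosen with earlier results of these data known. Alternatives were stricter q values, equal list lengths, ranks within an arm, log2 scores, other windows, blocking by replicate number (a replicate block) and leaving out single libraries.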

Additional observations from a re-analysis of the deposited data

How the results depend on the processing

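No result of a test could pass 0.05 under any setting, so directions and counts were followed. Shares over all genes or loci are not given for the alternative settings, so changed counts without overlap have no background beside them. Leaving out a library also makes non-overlap easier. With the promoter at 500 bp, the difference for BATF3 turned from 34.6 to -16.1 and no member was higher without overlap (0 against 1). For FOS, the 2.5 kb promoter gave 6.71 against -8.75. For FOSL1, the difference of -1.69 turned to 0.499 with q of 0.0001 or less, 1.64 within the arm and 0.0327 as a log2 score. Its rank within 11q (1.64) turned to -2.01 with equal list lengths. The count of members lower without overlap (1) was 0 with q of 0.0001 or less, equal list lengths or log2 scores. It was 2 with the 2.5 kb promoter, where FOSL2 (-46.1 against -31.2) joined JUND. Within the arm the count stayed at 1, but JUND overlapped and JUN (difference -6.3) did not.

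The difference in summits over all windows (0) was -1 at 20 kb, -1.67 at 100 kb, 2.33 with q of 0.0001 or less, -3.67 with equal list lengths and -6.51 per 100000 summits. Per 100000 summits, the FOS window became lower without overlap (-3.42). Of other single windows, FOSB (0.333) turned to -0.333 at 20 kb and with equal list lengths and to -0.152 per 100000, and JUND (-0.333) to 0.333 at 20 kb. With q of 0.0001 or less, FOSL2 (0.333) turned to -0.333 and BATF3 (-0.333) to 0.667, and with equal list lengths FOSL2 turned to -1.33 and ATF3 (0.333) to -0.667. The 76 loci fell to 45 at 20 kb. Loci lower without overlap (7) were 4 at 20 kb and 4 with q of 0.0001 or less, and those higher (2) were 4 at 100 kb and 5 with q of 0.0001 or less. For the windows of 20 and 100 kb the construction itself changes the number of loci. For the other settings the cause was not tested.

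With each library left out in turn, the ranges were -14.9 to 13.2 for FOSL1, -13.2 to 14.9 for its rank within 11q, 5.41 to 11.1 for the FOSL1 loci against the rest of 11q, 1 to 3 members lower without overlap, -5 to 5.5 for the summits over all windows, and 2 to 9 loci higher without overlap. Directions also turned for the summits of the windows of FOSB (-1.17 to 1.83), FOSL1 (-2 to 0.333), FOSL2 (-0.167 to 0.833), JUN (-1 to 0.167), JUND (-1.33 to 0.667), ATF3 (-0.667 to 1) and BATF3 (-1.17 to 0.333). The promoter differences of FOSL2, JUN, JUND, ATF3 and BATF3 kept their direction without each of the 6 libraries, but JUN (-4.49) ranged from -6.19 to -1.45 and ATF3 (-2.22) from -3.54 to -1.54.

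The replicate numbers are shared between the groups. Deviations of same-numbered libraries had correlations of -0.018, -0.0286 and 0.0115, and those of differently numbered ones -0.0183 to 0.04. Same-numbered libraries thus showed no shared deviation by this measure. Whether they were prepared together is not known. With a replicate block the smallest p of the exact sign-flip permutation test is 0.25, which JUND (-18.7) and BATF3 (34.6) had. The block leaves each difference of means the same by construction, so their unchanged size shows nothing about stability.

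Limits. The summit lists hold no read counts, so a rank of 0 says that no summit was listed, not that the site was closed. Depth is unknown, so its part in promoters listed in few libraries, such as those of FOS and FOSL1, was not tested. SAP30-KO1 is 1 line, and 3 libraries a group leave no test below 0.1.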
